A study of Homo sapiens with 11 samples.

Results

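Genes of acid-base handling were followed in RWPE1 cells, an immortalized and non-tumorigenic line of human prostate epithelium, through a time course of hypoxia. The 7 members were chosen by name from the 60676 genes of the count table: 4 carbonic anhydrases (CA2, CA9, CA12 and CA13) and 3 bicarbonate transporters of the SLC4 family (SLC4A2, SLC4A4 and SLC4A7). RNA sequencing libraries came from cells in normoxia (0 h, 3 libraries) and from cells held in 1% oxygen for 6 h (3 libraries), 12 h (3 libraries) or 24 h (2 libraries). All cells grew in keratinocyte serum-free medium with bovine pituitary extract and EGF. The labels give 10 mM HEPES, a pH buffer, for the hypoxic cells. They name none for the normoxic cells, so that its absence there is implied and not stated. Any difference from 0 h can therefore belong to the oxygen or to the buffer, which cannot be told apart. The 6, 12 and 24 h groups had the buffer in common, but there is no normoxic library at those times. Between these groups, hours in 1% oxygen, in the buffer and in culture therefore cannot be told apart either. The normoxic cells are labelled untreated, and the labels do not say that replicates were separate cultures, so the p-values measure the spread between these libraries, which may be technical.

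Carbonic anhydrases catalyse the reversible hydration of carbon dioxide to bicarbonate and a proton. CA2 and CA13 are cytosolic enzymes, whereas CA9 and CA12 are anchored in the plasma membrane with the catalytic domain facing the outside of the cell, and CA9 is a textbook target of the hypoxia-inducible factor HIF-1 and a tumor hypoxia marker. The SLC4 proteins move the bicarbonate across the membrane: SLC4A2 (AE2) exchanges it for chloride, SLC4A4 (NBCe1) carries it together with sodium and a net charge, and SLC4A7 (NBCn1) carries it into the cell together with sodium without a net charge.

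Between 27496009 and 49488345 reads per library were assigned to genes, and 19981 genes passed the filter on low counts, among them 6 of the 7 members. Levels of one gene are given as read counts per 1000000 after TMM scaling (CPM), and levels of different genes are compared only per exonic length (FPKM). The TMM factor fell with time, from 1.29 to 1.32 at 0 h to 1.03 to 1.07 at 6 h and 0.91 to 0.993 at 12 h. At 24 h it was 0.851 and 0.539, so that the scaling goes with the time group. The library of 24 h replicate 2 stood furthest apart, with a TMM factor of 0.539 against 0.851 to 1.32 in the other 10. The members' changes at 24 h are therefore also given without it. The same holds for the other acid-base genes named below where leaving it out ended the call or moved the fold by over 1.5 times. All 10 genes of a list of established hypoxia targets rose at each time point. The 6 basal epithelial markers had at least 10 counts in every library, with KRT5 at 7280 CPM and KRT14 at 1200 CPM in normoxia, and their summed level ran from 8250 to 11200 CPM at 0 h and from 16600 to 21200 CPM at 24 h. KRT14 was called higher at 6, 12 and 24 h (log2 fold change 1.21, 1.39 and 2.14) and KRT5 at 12 and 24 h (0.99 and 0.73), whereas TP63, a basal transcription factor, fell (log2 fold change -1.72, -0.95 and -1.5 at 6, 12 and 24 h; edgeR adjusted p of at most 0.000397). Of the other basal markers, KRT15 went from a mean of 292 CPM at 0 h to 140 CPM at 24 h and ITGB4 from 358 to 272 CPM. ITGA6 went from 441 to 1050 CPM. The basal sum thus mainly follows KRT5 and KRT14. KLK3, a defining gene of luminal cells, had 0 counts in every library. The summed level of the 5 luminal markers ran from 228 to 259 CPM at 0 h and from 1070 to 1800 CPM at 24 h, and that of the 3 leukocyte markers from 0.555 to 0.853 CPM and from 1.96 to 3.38 CPM, in both cases from fewer than all listed genes (3 of 5 and 1 of 3 with 10 counts in every library). The summed fibroblast markers ran from 47.2 to 60.6 CPM at 0 h and from 27.9 to 30.4 CPM at 24 h. Only 1 of these 5 genes had 10 counts in every library, so that this sum is no measure of fibroblasts. The 3 endothelial markers never exceeded 0.257 CPM in sum. The part of these shifts in the values below was not tested. A bulk library cannot distinguish fewer cells expressing a gene from less RNA per cell.

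Among the members, the extracellular carbonic anhydrases CA9 and CA12 rose and the sodium-bicarbonate cotransporter SLC4A7 fell late. CA9 and CA12 were higher than in normoxia at all 3 time points, CA2 at 12 and 24 h and CA13 at 6 and 24 h. SLC4A7 was lower at 24 h, SLC4A2 passed the test at no time, and SLC4A4 was almost without reads. A gene was called when its p from the quasi-likelihood F-test of edgeR, adjusted by the Benjamini-Hochberg method across all 19981 genes, was under 0.05. At 6 h 3 of the 6 tested members were called, all higher, against 52.8% of all tested genes called in either direction (25.1% higher and 27.7% lower). At 12 h 3 of 6 were called, all higher, against a background of 51.2% (24.2% higher and 27.1% lower). At 24 h 5 of 6 were called, 4 higher and 1 lower, against 61.2% (29.9% higher and 31.3% lower). The number of member calls is thus near the background at 6 and 12 h. The median log2 fold change over the 6 members was 0.43, 0.38 and 0.72, whereas the median over all tested genes was -0.002, -0.033 and -0.065. The members were chosen with earlier results of these data known, so these medians are a description and cannot show a shift of the members.

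**Figure D1:**
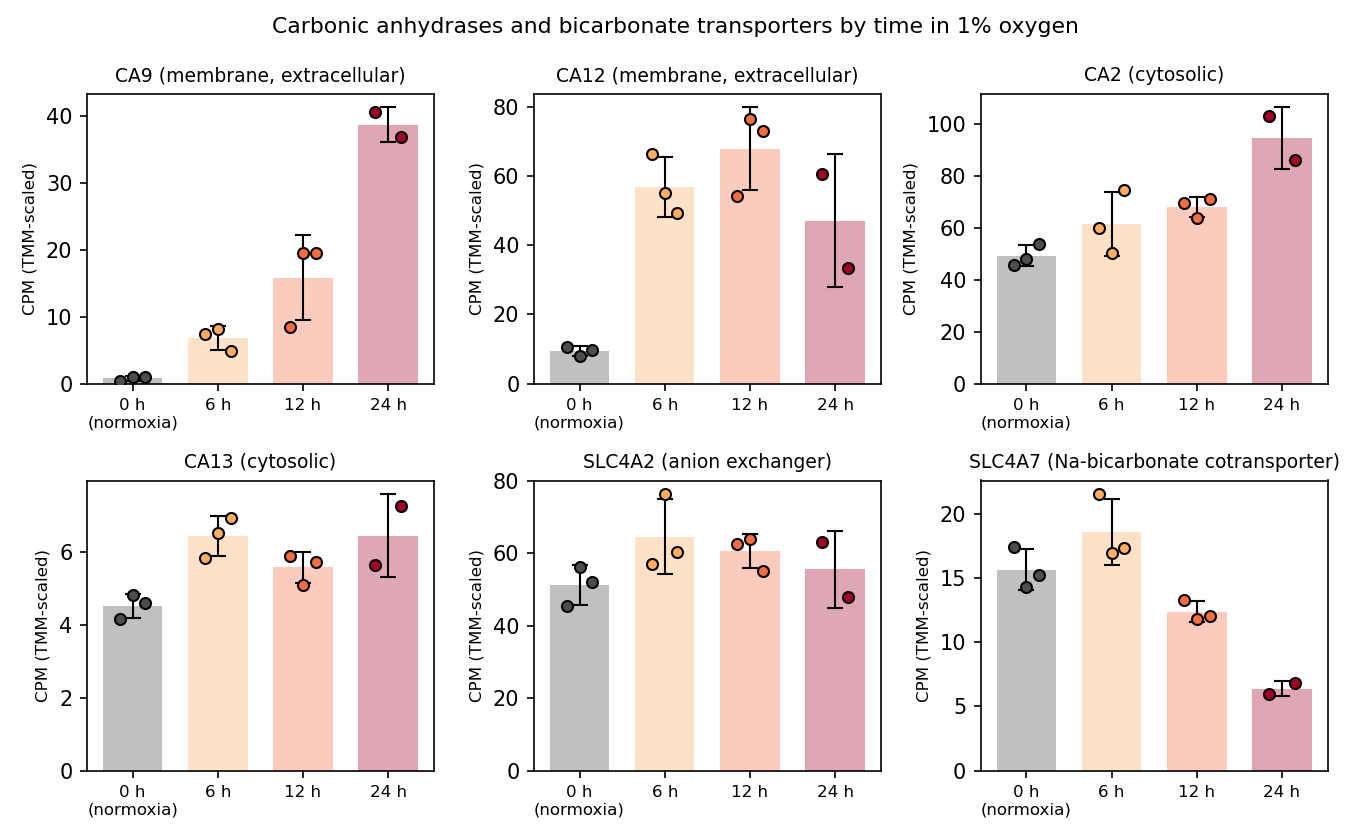
Level of each tested member in CPM (vertical axis, TMM-scaled) against hours in 1% oxygen (horizontal axis); points are libraries, bars are means and error bars are SD (n = 3, at 24 h n = 2). CA9 rises from 0.756 to 38.7 CPM, CA12 lies at 33.5 to 76.5 CPM in all hypoxic libraries against at most 10.7 CPM in normoxia, and SLC4A7 drops to 6.38 CPM at 24 h.

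CA9 (ENSG00000107159; GRCh38 chr9:35673928-35681159, forward strand) had the largest fold change of the members at every time. Its level in the normoxic libraries was 0.37, 0.96 and 0.938 CPM, from 16, 36 and 39 reads. After 6 h it was 7.35, 8.21 and 4.83 CPM, after 12 h 8.52, 19.6 and 19.5 CPM, and after 24 h 40.6 and 36.9 CPM. No hypoxic library overlapped the normoxic range. The normoxic and 12 h groups spread most, each with replicate 1 below the other libraries of its time. The log2 fold change against 0 h was 3.17 ± 0.39 (SE) at 6 h, 4.4 ± 0.4 at 12 h and 5.68 ± 0.43 at 24 h, or 8.98-, 21.1- and 51.4-fold. The edgeR adjusted p was 3.7e-05, 6.36e-06 and 1.22e-06. Without 24 h replicate 2 the last value was 5.73 (edgeR adjusted p = 9.15e-07).

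Of the 1598 exonic bases of CA9, 571 (35.7%) lie opposite exons of ARHGEF39, a gene on the other strand. The library kit keeps the strand, but the strand setting of the counting is not given in the sources used here. ARHGEF39 went the other way, from 5.74 ± 0.838 CPM (SD, n = 3) at 0 h to 1.3 ± 0.428, 2.5 ± 1.11 and 1.63 ± 0.312 CPM, with log2 fold changes of -2.16, -1.19 and -1.82 (edgeR adjusted p = 0.000273, 0.0101 and 0.00225). Per exonic length its level (0.127 to 0.503 FPKM) was below that of CA9 (3.02 to 25.4 FPKM) in every hypoxic library, whereas in every normoxic library it was above, at 0.896 ± 0.131 FPKM (SD, n = 3) against a mean of 0.473 FPKM for CA9.

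CA12 (ENSG00000074410; chr15:63321378-63381846, reverse strand) was higher from 6 h on. It stood at 10.7, 7.86 and 9.71 CPM in normoxia, at 66.4, 55.1 and 49.3 CPM after 6 h, at 54.3, 76.5 and 73.2 CPM after 12 h, and at 60.7 and 33.5 CPM after 24 h. Every hypoxic library lay above every normoxic one, and the lower of the 24 h values belonged to replicate 2. The log2 fold change was 2.59 ± 0.23 at 6 h, 2.85 ± 0.24 at 12 h and 2.32 ± 0.25 at 24 h (edgeR adjusted p = 4.01e-06, 3.82e-06 and 9.19e-06), which is 6.04-, 7.22- and 5.01-fold. At 24 h the change was 2.67 without replicate 2 and 1.77 without replicate 1, and was called in both cases (edgeR adjusted p = 7.9e-07 and 1.11e-05).

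CA2 (ENSG00000104267; chr8:85463968-85481493, forward strand), the abundant cytosolic enzyme, changed less and later. The normoxic libraries held 45.8, 48.1 and 53.7 CPM and those of 6 h 59.8, 50.2 and 74.6 CPM, so that these groups overlapped. Levels after 12 h were 69.4, 63.7 and 71 CPM and after 24 h 103 and 86.3 CPM, above all normoxic libraries. The log2 fold change was 0.32 ± 0.16 at 6 h, which did not pass (edgeR adjusted p = 0.0959), 0.47 ± 0.16 at 12 h (edgeR adjusted p = 0.0235) and 0.94 ± 0.17 at 24 h (edgeR adjusted p = 0.000456). Without 24 h replicate 2 the 24 h value was 1.05 (edgeR adjusted p = 0.000321). The 12 h call depended on the settings: it was gone in 7 of 20 alternatives, and with library size as the only scaling the 12 h value was -0.001, where the median of all tested genes was -0.50. With that scaling the 24 h value was 0.06 and not called, against a median of -0.97.

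CA13 (ENSG00000185015; chr8:85220587-85284073, forward strand), the second cytosolic enzyme, was a low-level gene with 132 to 365 reads per library. It stood at 4.16, 4.82 and 4.59 CPM in normoxia, at 5.84, 6.52 and 6.92 CPM after 6 h, at 5.89, 5.1 and 5.73 CPM after 12 h, and at 5.65 and 7.25 CPM after 24 h. All hypoxic libraries lay above the normoxic ones, by small margins. The log2 fold change was 0.51 ± 0.17 at 6 h (edgeR adjusted p = 0.0222), 0.3 ± 0.17 at 12 h, which did not pass (edgeR adjusted p = 0.153), and 0.51 ± 0.19 at 24 h (edgeR adjusted p = 0.0337). The 24 h call was gone in 11 of 20 alternatives, among them the one without 24 h replicate 2 (0.3, edgeR adjusted p = 0.218), and with library size alone the value turned to -0.44. The 6 h call was lost in 6 of 20.

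**Figure D2:**
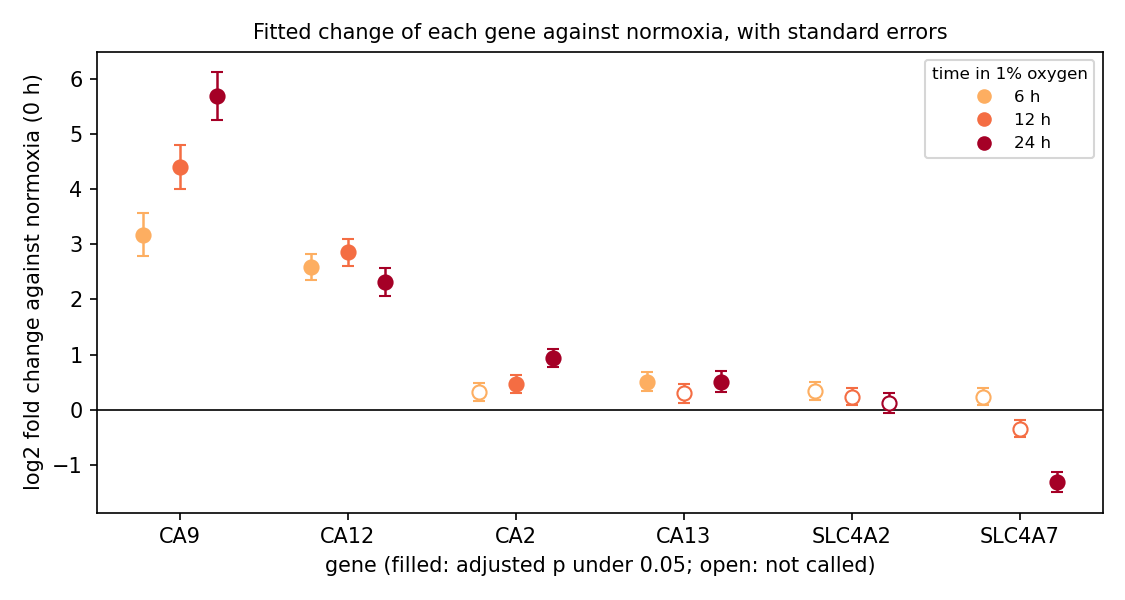
Fitted log2 fold change against normoxia (vertical axis) of the 6 tested members at 6, 12 and 24 h, with standard errors as bars; filled points have an edgeR adjusted p under 0.05 and open points do not. CA9 climbs from 3.17 to 5.68, CA12 stays between 2.32 and 2.85, and SLC4A7 is below 0 at 12 and 24 h; with library size as the only scaling the CA2 value at 12 h, the CA13 and SLC4A2 values at 12 and 24 h and the SLC4A7 value at 6 h fall below 0.

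SLC4A7 (ENSG00000033867; chr3:27372721-27484420, reverse strand) was the only member that passed the test in the downward direction. Its level was 17.4, 14.3 and 15.2 CPM in normoxia and 21.5, 16.9 and 17.3 CPM after 6 h, with overlapping groups. It then stood at 13.3, 11.8 and 12 CPM after 12 h and at 5.95 and 6.81 CPM after 24 h, below every normoxic library at both times. The log2 fold change was 0.24 ± 0.15 at 6 h and -0.34 ± 0.15 at 12 h, neither of which passed (edgeR adjusted p = 0.184 and 0.073), and -1.3 ± 0.18 at 24 h (edgeR adjusted p = 6.22e-05), a 2.46-fold lower level. The 24 h value was -1.42 without replicate 2 (edgeR adjusted p = 8.69e-05) and was called in all 20 alternatives.

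SLC4A2 (ENSG00000164889; chr7:151057210-151076526, forward strand), the chloride-bicarbonate exchanger, had small differences from normoxia. It held 45.3, 56.1 and 52 CPM in normoxia, 57, 76.2 and 60.4 CPM after 6 h, 62.6, 63.9 and 55.1 CPM after 12 h, and 63 and 48 CPM after 24 h. Only the 6 h libraries lay entirely above the normoxic ones. The log2 fold change was 0.34 ± 0.16, 0.24 ± 0.16 and 0.12 ± 0.18 at 6, 12 and 24 h (edgeR adjusted p = 0.0885, 0.213 and 0.569), and the 24 h value was 0.28 without 24 h replicate 2. A p that misses the threshold does not show an equal level. A long noncoding gene without a symbol (ENSG00000244151) lies opposite 9.42% of the exonic bases of SLC4A2 and was not called either, at 0.276 ± 0.131 CPM in normoxia (SD, n = 3).

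SLC4A4 (ENSG00000080493; chr4:71062667-71572087, forward strand) had 0 reads in 10 libraries and 3 reads in 24 h replicate 1. It was not tested. A count of 0 allows up to 3 reads, which corresponds to 0.0569 to 0.163 CPM depending on the library, and this limit covers counting error only. Among the bicarbonate transporters examined here, the electrogenic cotransporter was thus not detectable at this depth in most libraries, whereas SLC4A7 and SLC4A2 had at least 125 and 881 reads.

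The groups of libraries did not overlap between 0 h and 6 h for 4 members (CA9, CA12, CA13 and SLC4A2), against 69.6% of all tested genes. They did not overlap for 5 members at 12 h and for 5 at 24 h (CA2, CA9, CA12, CA13 and SLC4A7 in both cases), against 72.3% and 73%. The 6 and 12 h groups were apart for CA9 and SLC4A7 (2 members, against 31.6% of all tested genes), and both the 12 and 24 h groups and the 6 and 24 h groups for CA2, CA9 and SLC4A7 (3 members each, against 49.1% and 53.3%). Such counts are therefore near the background in most comparisons.

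The stretches upstream of the start sites are shown because CA9 and CA12 changed most and SLC4A7 fell, with SLC4A2, which was not called, for comparison. They come from the RefSeq table of windows from 250 bases before to 50 bases after each start (GRCh38.p14), in which CA9 and CA12 had 1 window each, SLC4A2 4, SLC4A4 5 and SLC4A7 2; no window was matched for CA2 and CA13. The letters ACGTG and GCGTG, the core of the hypoxia response element, were searched on both strands, with CACGTG as a palindrome that holds ACGTG on each strand. Of all 34943 windows, 21.4% hold ACGTG, 36.5% GCGTG, 48.4% either and 7.23% CACGTG. Capitals mark these letters on either strand (CACGT and CACGC are the cores read on the other strand), and each sequence is written 5′ to 3′ on the strand of its gene. The CA9 stretch is chr9:35673898-35673927, forward strand, the 30 bases just before the start, and it also lies in an ARHGEF39 exon. That of CA12 is chr15:63381997-63382096 (reverse strand, 250 to 151 bases before the start), that of SLC4A7 chr3:27484435-27484534 (reverse strand, 150 to 51 bases before) and that of SLC4A2 chr7:151062397-151062496 (forward strand, 150 to 51 bases before the third start of the table).
CA9: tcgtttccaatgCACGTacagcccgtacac
CA12: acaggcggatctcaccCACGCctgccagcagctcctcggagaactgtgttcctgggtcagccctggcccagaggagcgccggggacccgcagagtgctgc
SLC4A7: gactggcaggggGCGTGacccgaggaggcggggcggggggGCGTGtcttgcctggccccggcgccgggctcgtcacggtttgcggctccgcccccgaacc
SLC4A2: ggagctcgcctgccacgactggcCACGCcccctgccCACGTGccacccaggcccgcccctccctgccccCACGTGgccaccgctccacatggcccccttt

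The CA9 window held 1 core, an ACGTG read on the reverse strand 18 to 14 bases before the start. The CA12 window held 2 copies of GCGTG, 1 of them in the stretch shown and the other behind the start. SLC4A7 held 3 copies of GCGTG in its second window and none in its first. The SLC4A2 window shown in part held 3 copies of CACGTG, although SLC4A2 was not called at any time. A match is a description of the letters only and not a binding site.

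Between the hypoxic time points the buffer was shared, but hours in it cannot be told apart from hours in low oxygen or in culture. The members followed different courses over these times. From 6 to 12 h 1 of 6 tested members was called, against 4.95% of all tested genes (1.88% higher and 3.07% lower): SLC4A7 was lower at 12 h (log2 fold change -0.59 ± 0.15, edgeR adjusted p = 0.044). That call was lost in 11 of 20 alternatives. CA9 differed by 1.24 ± 0.33 without passing (edgeR adjusted p = 0.0523), and was called in 7 of the alternatives. The change of CA12 over these hours was 0.26 and that of CA2 0.14 (edgeR adjusted p = 0.542 and 0.642).

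From 12 to 24 h 2 of 6 tested members were called, against 28.4% of all tested genes (15.1% higher and 13.3% lower). CA9 was higher by 1.28 ± 0.36 (edgeR adjusted p = 0.0189) and SLC4A7 lower by a log2 fold change of -0.96 ± 0.18 (edgeR adjusted p = 0.00354). Without 24 h replicate 2 these values were 1.33 and -1.07 (edgeR adjusted p = 0.0389 and 0.00541). The CA9 call was lost in 3 of 20 alternatives (sample quality weights, library size alone and a fit of only the compared times) and the SLC4A7 call in 2 (quality weights and only the compared times). CA2 differed by 0.48 ± 0.17 and narrowly missed the threshold (edgeR adjusted p = 0.0546), which it passed at 0.58 without 24 h replicate 2 (edgeR adjusted p = 0.0442). CA12 stood lower by -0.53 ± 0.25 (edgeR adjusted p = 0.126). It was -0.18 without 24 h replicate 2 and -1.05, and called, without 24 h replicate 1 (edgeR adjusted p = 0.602 and 0.00261), and with no filter on low counts it was -0.62 and called (edgeR adjusted p = 0.0225).

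Over the whole hypoxic span, from 6 to 24 h, 3 of 6 tested members were called, against 42.4% of all tested genes (22.1% higher and 20.3% lower). CA9 rose by 2.52 ± 0.36 and CA2 by 0.62 ± 0.17, whereas SLC4A7 fell, with a log2 fold change of -1.54 ± 0.18 (edgeR adjusted p = 0.000294, 0.0118 and 0.000103). Without 24 h replicate 2 these were 2.59, 0.74 and -1.64, all called; without 24 h replicate 1 the CA2 value was 0.45 and not called (edgeR adjusted p = 0.0555). The CA2 call was lost in 4 of 20 alternatives, with a value of 0.051 under library size alone (edgeR adjusted p = 0.883). CA12 (-0.27, and -0.79 and called without 24 h replicate 1), SLC4A2 (-0.22) and CA13 (0) did not pass (edgeR adjusted p = 0.399, 0.346 and 1).

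Per exonic length, the order of the members in normoxia was CA2 (24.5 FPKM), SLC4A2 (6.75), SLC4A7 (1.63), CA12 (1.34), CA13 (0.809) and CA9 (0.473). The libraries of SLC4A7 (1.49 to 1.81 FPKM) and CA12 (1.12 to 1.52 FPKM) overlapped, whereas other neighbours in this order did not. At 6 h the order was CA2 (30.7 FPKM), SLC4A2 (8.53), CA12 (8.13), CA9 (4.25), SLC4A7 (1.93) and CA13 (1.15), with SLC4A2 and CA12 overlapping. At 12 h CA9 (9.95 FPKM), CA12 (9.72) and SLC4A2 (7.99) overlapped below CA2 (33.9) and above SLC4A7 (1.29) and CA13 (0.996). At 24 h CA9 stood second at 24.2 FPKM, below CA2 at 47.1 FPKM; SLC4A2 (7.33) and CA12 (6.73) overlapped, followed by CA13 (1.15), and SLC4A7 was last at 0.663 FPKM. CA9 therefore went from the lowest to the second place among the tested members.

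The make-up of carbonic anhydrase transcripts changed with it. In sum over the 15 carbonic anhydrase genes listed, the 4 members and 11 others, the level was 31.4 ± 2.31 FPKM at 0 h, 48.4 ± 4.26 at 6 h, 58.9 ± 5.5 at 12 h (SD, n = 3) and 84.3 ± 9.17 FPKM at 24 h (SD, n = 2), or 1.54, 1.88 and 2.69 times normoxia. With library size as the only scaling these ratios were 1.24, 1.36 and 1.45. The shares within a library do not depend on the scaling. CA2 made up 78.1% ± 1.78 (SD, n = 3) of the sum in normoxia and 55.9% ± 0.849 (SD, n = 2) at 24 h, although its own level was higher there. CA9 and CA12 together made up 5.79% ± 0.0617 in normoxia, 25.9% ± 5.75 at 6 h, 33% ± 7.27 at 12 h (SD, n = 3) and 36.7% ± 1.2 at 24 h (SD, n = 2), and no hypoxic library overlapped the normoxic ones. Within that pair the mean balance shifted: CA12 held 16.9% of the sum and CA9 8.96% at 6 h, and 16.4% and 16.6% at 12 h. At 24 h CA9 held 28.8% against 7.85% for CA12. The 12 h libraries differed, with CA9 at 10.1% against 14.7% for CA12 in replicate 1. In 12 h replicates 2 and 3 CA9 held 20.4% and 19.2% against 18.2% and 16.5% for CA12. CA13 contributed 2.59% in normoxia and 1.39% at 24 h. In 24 h replicate 1 CA9 held 28% and CA12 9.56%, and in replicate 2 29.7% and 6.14%. Of the 11 other genes, CA11 held 8.33% to 12% of the sum in the normoxic libraries and 3.58% and 5.76% at 24 h. These shares are a description without a test. They group transcripts by gene name and do not measure active enzyme.

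**Figure D3:**
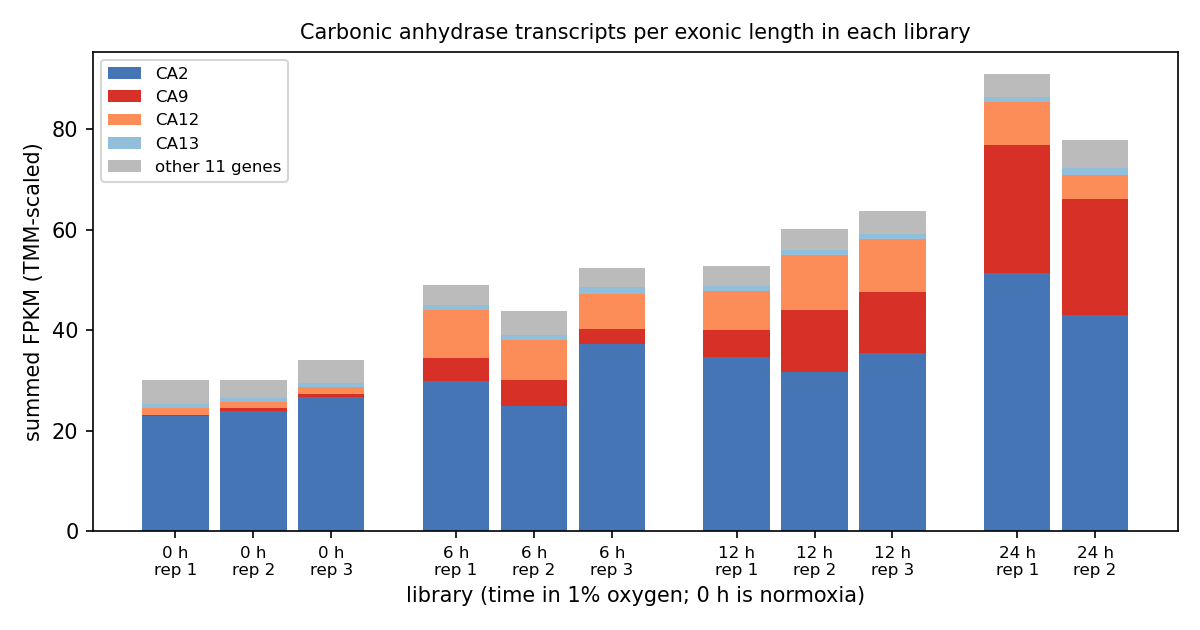
Summed FPKM of 15 carbonic anhydrase genes (vertical axis, TMM-scaled) in each of the 11 libraries, ordered by hours in 1% oxygen, with the parts of CA2, CA9, CA12, CA13 and the other 11 genes stacked. The sum is 30 to 34 FPKM in normoxia and 77.8 to 90.8 FPKM at 24 h, and the CA9 part grows from at most 2% to 28 and 29.7%.

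The genes with the most similar course were found by the correlation of log2 CPM over the 11 libraries, among 13938 genes with a symbol and a mean of at least 1 CPM. These libraries share 4 time points, so that a high value mainly says that the steps between times have the same pattern. CA9 was most like SLC2A1 (Pearson r = 0.992), which encodes the glucose transporter GLUT1, then TNIP1 (0.985) and ALDOC (0.98), an aldolase of glycolysis. CA12 was most like TCAF2C (0.991), PFKFB3 (0.989), which makes an activator of phosphofructokinase, and SPRY1 (0.988), an inhibitor of receptor tyrosine kinase signalling. For CA2 the genes were LAP3 (0.96), an aminopeptidase, and the pseudogenes DYNC1I2P1 (0.944) and HNRNPA1P10 (0.94). For CA13 they were IGFBP4 (0.971), TMED9 (0.958) and SELENOS (0.957), for SLC4A7 the zinc finger genes ZNF791 (0.972) and ZNF852 (0.969) and FUBP3 (0.967), and for SLC4A2 they were SPON1 (0.894), URGCP (0.866) and RTN3P1 (0.86). The closest likeness of SLC4A2 was thus weaker than that of the other members. Between members the coefficient was 0.84 for CA9 and CA12, 0.82 for CA2 and CA9, -0.77 for CA2 and SLC4A7 and -0.66 for CA9 and SLC4A7.

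Around the members, 86 other genes of acid-base handling in 9 lists were examined, of which 59 were tested. At 6 h 17 of these were higher and 12 lower (49.2% called), at 12 h 16 and 15 (52.5%) and at 24 h 17 and 15 (54.2%), with median log2 fold changes of -0.01, 0.04 and 0.11. These shares are close to the backgrounds of 52.8%, 51.2% and 61.2%. By direction, 25.1%, 24.2% and 29.9% of all tested genes were called higher and 27.7%, 27.1% and 31.3% lower. The counts of each list below are to be read beside these shares, and many are near them. Single genes changed strongly in both directions, and the lists are described next to place the members.

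Of the other 11 carbonic anhydrases 4 were tested. The membrane-bound CA14 was the one gene called, higher at 6 h (log2 fold change 0.82 ± 0.21, edgeR adjusted p = 0.00563) and lower at 24 h (-0.98 ± 0.29, edgeR adjusted p = 0.0104), from a normoxic level of 0.995 CPM. Of the other 7 SLC4 genes 4 were tested, with 2 higher and 0, 1 and 1 lower at 6, 12 and 24 h. SLC4A11, a membrane transporter of water, protons and ammonia, was higher at all 3 times (0.82, 0.79 and 0.47; edgeR adjusted p = 0.000933, 0.00139 and 0.0331), though with library size alone the 24 h value was -0.47, and without 24 h replicate 2 it was 0.32 and not called (edgeR adjusted p = 0.173). SLC4A3, another chloride-bicarbonate exchanger, was lower at 24 h (-0.62 ± 0.25, edgeR adjusted p = 0.0456), a call lost in 11 of 20 alternatives, with -0.35 without 24 h replicate 2 (edgeR adjusted p = 0.267). The SLC4 family thus held members that were higher, lower and not called.

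Of the 6 tested SLC26 anion exchangers 4, 3 and 3 were called at 6, 12 and 24 h, all of them lower, where 27.7%, 27.1% and 31.3% of all tested genes were called lower and 52.8%, 51.2% and 61.2% in either direction. SLC26A2, a sulphate transporter, stood at 17.3 CPM in normoxia and 3.52 CPM at 24 h (log2 fold change -0.93, -1.09 and -2.3; edgeR adjusted p = 0.0029, 0.00124 and 1.82e-05). SLC26A1, a sulphate and oxalate exchanger, changed by -1.47, -1.29 and -2.02 (edgeR adjusted p = 0.0048, 0.0107 and 0.00265), and 12.4% of its exonic bases lie opposite IDUA.

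Among the 9 tested sodium-proton exchangers of the SLC9 family 3, 2 and 2 were higher and 3 were lower at each time. SLC9A8, an exchanger of the Golgi, was lower throughout (log2 fold change -2.22, -1.84 and -2.58; edgeR adjusted p of at most 4.41e-05), as was SLC9A3 (-1.53, -0.9 and -2.64; edgeR adjusted p = 0.000833, 0.0186 and 8.18e-05), of which 41.1% of the exonic bases are shared with the noncoding gene PP7080. SLC9A5 was higher at 24 h (1, edgeR adjusted p = 0.0243), with -0.03 under library size alone and 0.25 without 24 h replicate 2, which was not called (edgeR adjusted p = 0.55).

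The monocarboxylate transporters, which move lactate together with a proton, included some of the largest rises. SLC16A1 (MCT1) went from 90.8 CPM to 463, 374 and 301 CPM (log2 fold change 2.35, 2.04 and 1.73; edgeR adjusted p of at most 6.64e-06). SLC16A3 (MCT4), the lactate exporter of glycolytic cells, rose by 1.4, 1.34 and 1.38 (edgeR adjusted p = 0.000625, 0.000992 and 0.000967), where the 24 h value was 0.59 without 24 h replicate 2 (edgeR adjusted p = 0.0151) and 0.33 under library size alone, and BSG (basigin), their chaperone to the membrane, by 0.74, 0.95 and 1.4 (edgeR adjusted p = 0.00283, 0.000667 and 4.63e-05). SLC16A7 (MCT2) was lower at 24 h (-0.86, edgeR adjusted p = 0.00732), with -0.48 without 24 h replicate 2 and -1.49 without 24 h replicate 1. EMB (embigin), another chaperone, was lower at 12 h (-0.44, edgeR adjusted p = 0.036). In all 3, 3 and 3 of 6 tested genes were higher and 1, 2 and 2 lower.

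At 6, 12 and 24 h 25.1%, 24.2% and 29.9% of all tested genes were called higher and 27.7%, 27.1% and 31.3% lower. Of 21 tested genes of the vacuolar proton pump 6, 7 and 9 were higher and 2 lower at each time. ATP6V0E1 (log2 fold change 1.03, 1.2 and 2.24), ATP6V1D (1.29, 1.16 and 1.6) and ATP6V0B (0.73, 0.93 and 2.14), which encode subunits of its membrane and cytosolic sectors, rose at all times (edgeR adjusted p of at most 0.0358), and the 6 h call of ATP6V0B was lost in 9 of 20 alternatives. Without 24 h replicate 2 the 24 h values of ATP6V0E1 and ATP6V0B were 1.5 and 1.19, both called (edgeR adjusted p = 4.93e-06 and 6.61e-06). ATP6V1E2 (-1.27, -1.88 and -2.08) and ATP6V0A2 (-0.82, -0.64 and -0.77) fell at all times (edgeR adjusted p of at most 0.00828). None of 4 other proton pump and channel genes had enough reads to be tested.

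Of 5 tested acid and bicarbonate sensors 1, 2 and 1 were higher and 1, 3 and 2 lower. ASIC1, an acid-sensing ion channel, was lower at 12 and 24 h (-0.93 and -1.12; edgeR adjusted p = 0.0318 and 0.0263), and not called at 24 h without replicate 2 (-1.02, edgeR adjusted p = 0.0938). Of 4 tested regulators AHCYL2, which binds sodium-bicarbonate cotransporters, was higher at 6 h (0.55, edgeR adjusted p = 0.0284), a call lost in 8 of 20 alternatives, and 1 gene was lower at each time. Named after their values were seen, other genes in these counts of 5 or fewer were SLC4A1 and SLC9A2 (higher at all 3 times), ASIC4 (higher at 6 and 12 h), SLC26A4, SLC16A8 and CHP2 (lower at all 3 times), SLC26A11 (lower at 6 h), SLC9B2 and ASIC3 (lower at 6 and 12 h), GPR132 (lower at 12 and 24 h) and SLC4A5 (lower at 12 h). Without 24 h replicate 2 the 24 h values of SLC26A4 and GPR132 were -0.91 and -2.93, against -1.29 and -2.19 with it, and SLC26A4 was then not called. The 24 h call of each was lost in 2 of 19 alternatives. The 12 h call of GPR132 was lost in 10 of 19 and the 24 h call of SLC9A2 in 3 of 19.

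**Figure D4:**
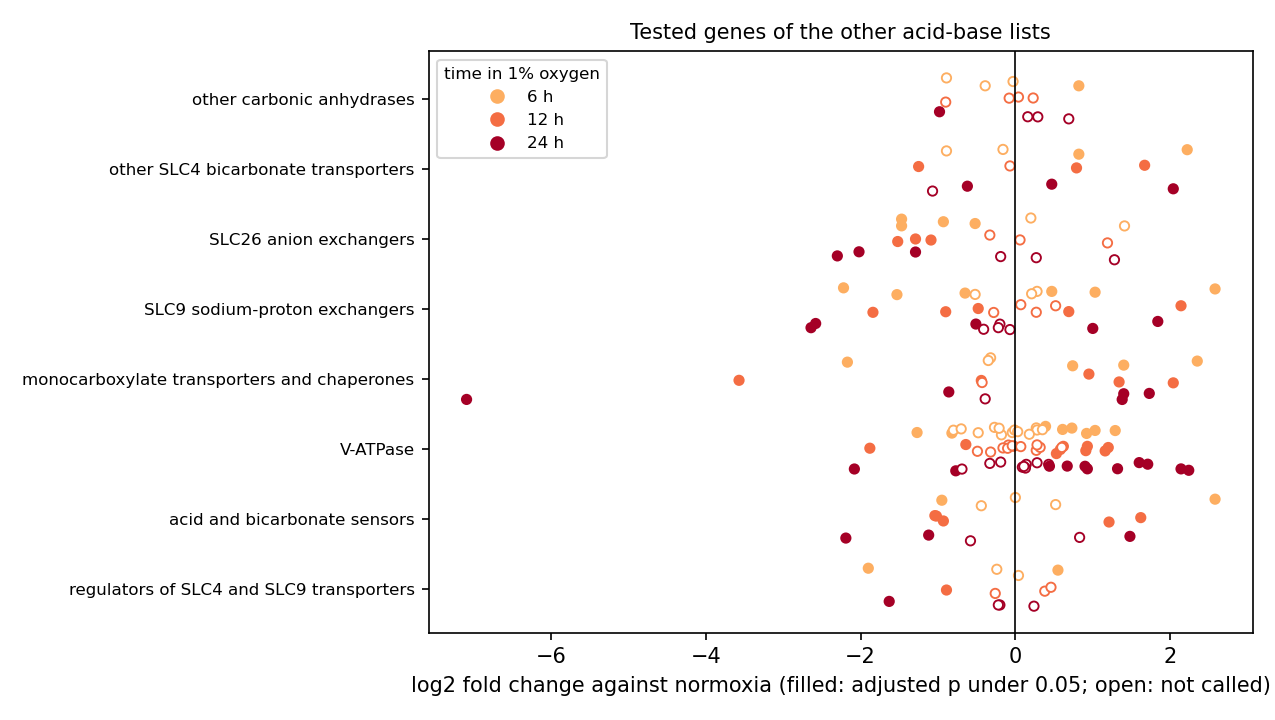
Log2 fold change against normoxia (horizontal axis) of the 59 tested genes in the other acid-base lists (rows), 1 point per gene and time; filled points have an edgeR adjusted p under 0.05. The 6 SLC26 genes have filled points only below 0, the vacuolar proton pump reaches 2.24, and the point at -7.09 is SLC16A8, named here after its value was seen, with 0 reads in both 24 h libraries, so that its fitted value is no measure of size.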

How the data were processed

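The authors trimmed the reads (Trimmomatic), aligned them to hg38 (STAR) and assigned them to Ensembl genes (featureCounts), per the labels; the deposited values are raw whole-number counts, neither filtered nor normalized, of 11 libraries (60676 genes, 0 columns not used). The strand setting and the handling of reads with several matches are not given in the sources used here. Libraries were grouped by the time in their titles. Symbols, positions and exonic lengths came from GENCODE 44 on GRCh38 (60357 identifiers found, 42009 with a symbol).

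filterByExpr (minimum count 10, minimum total 15) kept 19981 genes. All libraries entered 1 edgeR quasi-likelihood fit (glmQLFit, glmQLFTest) with TMM scaling and a mean per time point; its biological coefficient of variation was 19.6%. The Benjamini-Hochberg adjustment ran over all tested genes, and a standard error is the log2 fold change over the square root of F. The study's own test, limma-voom, was an alternative. Others were limma-voom with sample quality weights, DESeq2, median-of-ratios factors, library size alone, no filter, at least 10 counts in every library, only the times compared, the replicate number as a block, and each library left out. Replicate pairs differed by more than counting noise, so none was merged.

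The members and lists were chosen with earlier results of these data known. List genes named are those of at least 1 CPM with the 3 largest mean rises and falls among genes called at all 3 times or, where a list had none, the 3 largest called at any; likeness names 3 genes per member. Some genes that meet these rules are not reported here. Counting limits are 3 reads. Log2 CPM used a prior count of 2. Software was Python 3.11.15 (matplotlib 3.10.9, numpy 2.4.6, pandas 2.3.3) and R 4.3.3 (limma 3.58.1, DESeq2 1.42.0, edgeR 4.0.16).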

Additional observations from a re-analysis of the deposited data

Results flagged for a closer look

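For 3 members the change against normoxia differed between hypoxic times in edgeR's test of that difference, adjusted by Benjamini-Hochberg across all genes tested. SLC4A7 was lower at 12 than at 6 h (log2 fold change -0.59, adjusted p = 0.044), at 24 than at 12 h (-0.96, adjusted p = 0.00354) and at 24 than at 6 h (-1.54, adjusted p = 0.000103). CA9 was higher at 24 than at 12 h (1.28, adjusted p = 0.0189) and than at 6 h (2.52, adjusted p = 0.000294). CA2 was higher at 24 than at 6 h (0.62, adjusted p = 0.0118). The SLC4A7 call from 6 to 12 h was lost in 11 of 20 alternatives and the CA2 call in 4. From 12 to 24 h the CA9 call was lost in 3 and the SLC4A7 call in 2.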

How the results depend on the processing

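CA9 and CA12 kept their call and direction against 0 h in all 20 alternatives at each time, as did SLC4A7 at 24 h against 0 and 6 h and CA9 at 24 h against 6 h. Over all members, comparisons and alternatives, 630 of 720 values kept direction and call, 43 calls were lost, 34 were gained and 13 values turned. Depth limits SLC4A4, CA13 and the normoxic level of CA9, which rests on 16 to 39 reads. The 24 h group has 2 libraries, and where one is left out the other is assumed to vary like the other groups. HEPES and oxygen cannot be told apart against 0 h, nor can hours in either between the hypoxic times. The cause of the changes below was not tested.

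With library size alone all genes together shifted, to a median of -0.32, -0.5 and -0.97 (log2) at 6, 12 and 24 h, and the share of calls that were higher was 27.6%, 20% and 16.4% in place of 47.6%, 47.2% and 48.8%. Under it SLC4A7 at 6 h was -0.075; at 12 h CA2 was -0.001, CA13 -0.17 and SLC4A2 -0.22; at 24 h CA13 was -0.44 and SLC4A2 -0.75; CA2 from 6 to 12 h was -0.009 and CA13 from 12 to 24 h -0.27. Relative to that median, CA2 was 1.03 and CA13 0.53 at 24 h, against 1.01 and 0.57 with TMM. The summed carbonic anhydrase FPKM was 1.24, 1.36 and 1.45 times normoxia. SLC4A2 turned at 24 h with at least 10 counts in every library (-0.022). Without 1 library SLC4A2 ran from -0.15 (24 h replicate 1) to 0.28 (24 h replicate 2) at 24 h, from -0.18 to 0.041 (6 h replicate 2) from 6 to 12 h and from -0.36 (24 h replicate 1) to 0.045 (24 h replicate 2) from 12 to 24 h, and CA12 from -0.79 (24 h replicate 1) to 0.1 (24 h replicate 2) from 6 to 24 h.

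Sample quality weights and a fit of only the compared times each called 6 members at 12 h in place of 3. Over all genes they called 14908 of 19981 and 12961 of 18657 at 12 h, in place of 10236 of 19981. Each called 2 members in place of 1 from 6 to 12 h, and 0 in place of 2 from 12 to 24 h. DESeq2 called 2 from 6 to 12 h, and library size alone 1 from 12 to 24 h. Of the other acid-base genes, quality weights called 17 in place of 32 at 24 h, 15 in place of 4 from 6 to 12 h, 2 in place of 14 from 12 to 24 h and 6 in place of 23 from 6 to 24 h. Only the compared times gave 0 from 12 to 24 h (unadjusted p under 0.05 for 5671 of all genes) and 11 from 6 to 24 h. From 6 to 12 h library size alone, no filter and the stricter filter each called 2. Over all genes quality weights called 6169 in place of 12235 at 24 h and 4489 in place of 989 from 6 to 12 h. They called 1093 in place of 5668 from 12 to 24 h and 2531 in place of 8479 from 6 to 24 h. DESeq2 called 1922 from 6 to 12 h, no filter 1674 and only the compared times 1876. Over the last 2 spans only the compared times called 0 and 3916. With 1 library of 0, 6 or 12 h left out, calls over all genes ran from 8657 to 10442 at 6 h. They ran from 8176 to 10249 at 12 h and from 10759 to 12269 at 24 h.

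Leaving out 1 library, the members called ranged from 2 to 4 at 6 h, 2 to 4 at 12 h, 4 to 5 at 24 h, 0 to 2 from 6 to 12 h, 2 to 3 from 12 to 24 h and stayed 3 from 6 to 24 h. The other acid-base genes ranged from 23 to 37, 23 to 42 and 28 to 36 against 0 h, from 0 to 13 from 6 to 12 h, from 4 to 24 from 12 to 24 h and from 17 to 26 from 6 to 24 h. From 6 to 12 h no member was called without any of the 3 normoxic libraries, any 6 h library, or 12 h replicate 2 or 3, and 2 were called without either 24 h library. Over all genes that comparison gave 61 calls without 12 h replicate 3 and 3649 without 24 h replicate 2.

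Replicate numbers do not pair the libraries: the 15 same-number pairs correlated between -0.16 and 0.21 in their deviations from the group means, 2 of them over 0.1. With the replicate block SLC4A7 from 6 to 12 h lost its call, leaving 0 members called (edgeR adjusted p = 0.0703), CA2 from 12 to 24 h gained one (0.55, edgeR adjusted p = 0.0329), and the other acid-base genes called were 1 from 6 to 12 h and 8 from 12 to 24 h; over all genes 510 were called in place of 989 from 6 to 12 h.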
